A study of Mus musculus with 6 samples.

Results

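The nuclear genes of the mitochondrial respiratory chain and ATP synthase were described complex by complex in sorted LT-HSCs, the long-term blood stem cells of the bone marrow that sustain all blood lineages. Members were all rows of the deposited gene table whose symbol begins with Nduf plus a subunit letter and number, Uqcr, Cox4 to Cox8, Atp5, or Sdha to Sdhd. This gave 85 members of 23235 genes in the table. Complex I had 36, complex II 4, complex III 8, complex IV 20 and complex V 17. Ndufa4 carries a complex I symbol but its protein is a subunit of complex IV, and it was counted there. For 4 members the symbol matches but the protein is not a subunit: Cox4nb (current symbol Emc8, of the endoplasmic reticulum membrane complex), Cox7a2l (a supercomplex assembly factor), Atp5s (now Dmac2l) and Atp5sl (now Dmac2, needed for complex I assembly). They stayed in the complex their symbol names.

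The libraries came from wild type (WT) mice and from mice with a knockout of Hmces, whose protein binds abasic sites in single-stranded DNA. All mice were listed as C57BL/6 and aged 2 months, and neither the knockout allele nor the antibody panel is stated in the labels. A 13bp tag stands in every library title, in both genotypes, and its meaning is unknown here. The labels give 3 libraries of each genotype, each from 1500 sorted cells amplified by Smart-seq2, whereas the design text speaks of duplicates. Nothing says that the libraries came from separate mice, so every p-value reflects the spread among these samples alone, and that spread may be technical. Values were FPKM, fragment counts scaled to transcript length and to the mapped total of a library, which allow levels of different genes to be set side by side.

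The respiratory chain moves electrons from NADH, through complex I, or from succinate, through complex II, to coenzyme Q, then through complex III and cytochrome c to complex IV, which reduces oxygen. Complexes I, III and IV pump protons across the inner mitochondrial membrane, and complex V, the ATP synthase, uses the returning protons to make ATP. Complex II is at the same time an enzyme of the tricarboxylic acid cycle and pumps no protons. Most subunits are encoded in the nucleus and a few of complexes I, III, IV and V in mitochondrial DNA. LT-HSCs are known to rely largely on glycolysis while quiescent, and mitochondrial activity rises as they differentiate.

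The libraries held an estimated 9300000 to 14200000 fragments each, at an assumed fragment length of 200 nt. At that depth the median member had 2310 fragments in a library, and the fewest for a member with a mean FPKM of at least 10 was 97.9. These figures cover counting error only. In WT libraries the FPKM of Hmces ran from 39.5 to 45.4, and in knockout replicates 1 to 3 it was 8.95, 0.222 and 6.945. The lowest Hmces level was thus that of knockout replicate 2. Knockout replicate 2 stood apart, scoring 67.0 on the first principal component where the other libraries scored -33.6 to 10.1. Log2 differences of named members that turned direction or moved by over 1.5 times without it are therefore also given without it. Of 14 LT-HSC markers, Hoxb5 was under 1 FPKM in every library, and their summed level was 788 to 867 FPKM in WT and 921 to 954 in knockout. Summed markers of granulocytes and monocytes were at 7082 to 10970 FPKM in WT and 19620 to 26070 in knockout, and 2 of the 14 passed the test as higher. The part of that difference in the results below was not tested, and in bulk samples fewer cells of a type and less RNA per cell cannot be told apart.

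Promoters of many respiratory genes are known to carry sites for the factors NRF-1, GABP (an ETS factor) and YY1. RefSeq windows of GRCm38.p6, from 250 bases before to 50 after each annotated start, were found for 70 of the 85 members. The NRF-1 letters, GCGC, then any base, then TGCGC, searched on both strands as were the others, lay in a window of 17 members, or 24.3%, against 5.19% of all 27025 genes in the table of windows. The ETS letters CCGGAAG were found for 16 members (22.9%, against 9.93% of genes), and the YY1 letters AAGATGGCG for 8 (11.4%, against 1.64%). The 3 searches can overlap in a window, and 35 members had at least 1 of the 3. A match describes letters in a window and is no evidence of binding.

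Stretches with an NRF-1 match are shown for Cox6a1, Atp5k and Atp5g3, which are among the members with the largest differences, for Atp5g2, which makes the same mature protein as Atp5g3, and for Uqcrc1, whose level hardly differed. Each is read 5′ to 3′ on the strand of the gene, from GRCm38.p6, and capitals mark the match. In Cox6a1 the first bases of the matches lie 162 and 117 bases before the start, in Atp5k 50 and in Atp5g2 42 before it. In Atp5g3 and Uqcrc1 the match lies just after the start, and only the 30 bases around it are shown.
Cox6a1, chr5:115349021-115349165, strand -: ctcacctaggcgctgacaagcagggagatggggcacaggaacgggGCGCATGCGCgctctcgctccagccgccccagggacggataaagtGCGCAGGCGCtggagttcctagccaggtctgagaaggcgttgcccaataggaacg
Atp5k, chr5:108434400-108434494, strand -: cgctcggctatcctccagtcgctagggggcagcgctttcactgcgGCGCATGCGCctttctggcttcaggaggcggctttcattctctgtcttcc
Atp5g2, chr15:102671048-102671134, strand -: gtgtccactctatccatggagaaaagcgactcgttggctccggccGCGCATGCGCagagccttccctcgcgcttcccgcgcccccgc
Atp5g3, chr2:73911295-73911324, strand -: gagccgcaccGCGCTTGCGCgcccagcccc
Uqcrc1, chr9:108936643-108936672, strand +: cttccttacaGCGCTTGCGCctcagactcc
The median log2 difference, knockout minus WT, was -0.15 over the 17 tested members with an NRF-1 match, of which 16 were below 0, and -0.19 over the 51 without one. It was -0.23 with and -0.16 without the ETS letters, and -0.08 with and -0.18 without the YY1 letters. Members with and without these letters were thus both mostly below 0.

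The members were abundant in these cells. A member was tested where its mean FPKM over the 6 libraries was at least 1, which held for 82 of the 85 and for 11532 genes in all. The 3 that were not tested belong to complex IV: Cox7b2 and Cox8b were listed at 0 in every library, and Cox8c at 1.15 FPKM in knockout replicate 1 and 0 in the others. Of the tested members, 71 had a mean of at least 100 FPKM, 8 lay between 10 and 100, and 3 were under 10. Their median mean level was 276.9 FPKM, at percentile 96.4 of all genes tested. The most abundant was Ndufa4, at 1326 FPKM, followed by the catalytic ATP synthase subunit Atp5b at 1052. By complex, the top members were Ndufa3 (819 FPKM) in complex I, Sdhb (276) in II, Uqcrb (744) in III, Ndufa4 in IV and Atp5b in V. Median levels were 199.8 FPKM for complex I, 236 for II, 412 for III, 406 for IV and 504 for V. The order of the members by level was nearly the same in both genotypes, with Spearman's rho of 0.987 between the group means of 82 genes. This is a correlation across genes, which share libraries and are not replicates.

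No member passed the test. With limma on log2(FPKM + 1) and Benjamini-Hochberg adjustment over all genes, 0 of the 82 tested members had an adjusted p under 0.05, and 0.113% of all genes did (0.104% higher and 0.00867% lower in knockout). The smallest adjusted p was 0.332, of Atp5g3. At an unadjusted p under 0.05, 15 members were lower in knockout, or 18.3%, against 4.84% of all genes, and 0 were higher, against 4.32%. The values nevertheless lay mostly on the same side. The log2 difference was below 0 for 72 members, or 87.8%, against 51.9% of all genes, with a median of -0.16 against -0.01. It ran from -0.95, for the sparse gene Cox4i2, to 0.25, for Uqcrc2. In 18 members, 22.0%, every knockout library was below every WT library, as in 8.34% of all genes, and in 1 member, Uqcrc2, every knockout library was above, as in 7.47% of all genes.

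Abundant genes outside the members were also more often below 0 than above it. Outside the members, 68.1% of 1151 tested genes with a mean of at least 100 FPKM had a log2 difference below 0, with a median of -0.09. Among the 71 members at that level it was 90.1%, with a median of -0.19. Every knockout library was below every WT library in 193 of those 1151 genes and in 17 of the 71 members. Every knockout library was above in 65 and in 1. At an unadjusted limma p under 0.05, 122 of the 1151 genes were lower and 55 higher, against 15 and 0 of the 71 members. The shares over all genes given above are thus lower than those over abundant genes. No test of the members as a set was made.

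The share of members below 0 was 32 of 36 in complex I, 4 of 4 in II, 6 of 8 in III, 15 of 17 in IV and 15 of 17 in V. Median log2 differences were -0.17 in complex I, -0.05 in II, -0.10 in III, -0.23 in IV and -0.15 in V. Members in which no knockout library reached the lowest WT library numbered 9 of 36 in complex I (25.0%), 0 of 4 in II, 0 of 8 in III, 5 of 17 in IV (29.4%) and 4 of 17 in V (23.5%), against 8.34% of all genes. Of the abundant genes outside the members, 193 of 1151 showed the same. Complex IV thus had the lowest median and complex II the median closest to 0, and the differences between complexes were not tested.

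**Figure D1:**
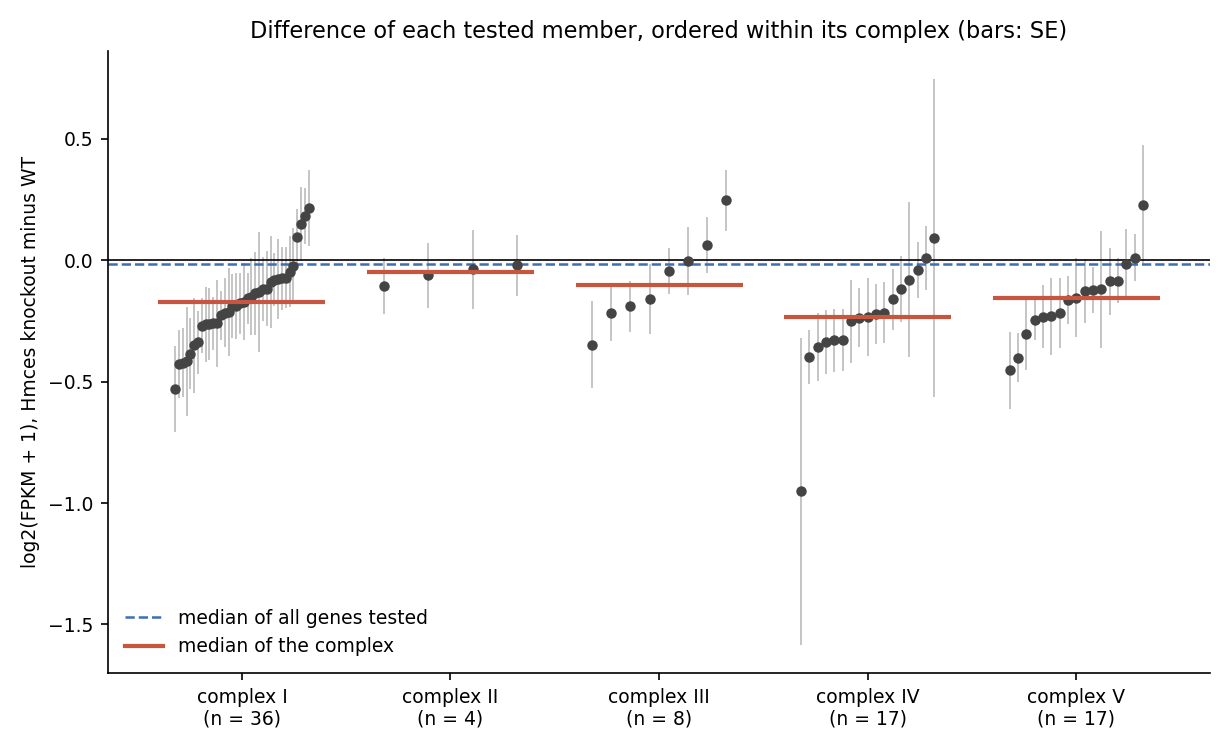
Log2 difference in log2(FPKM + 1), Hmces knockout minus WT, of each of the 82 tested members, ordered within complexes I to V, with bars for the standard error. Red lines are the medians of the complexes, from -0.05 (complex II) to -0.23 (complex IV), and the dashed line is the median of all genes tested, -0.01.

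The libraries of a genotype did not sit together. Each library was placed by the median over members of its log2(FPKM + 1) minus the member's mean over the WT libraries. The WT replicates 1 to 3 were at 0.02, 0.09 and -0.105, and the knockout replicates 1 to 3 at -0.06, -0.32 and -0.16. On the same scale all genes tested ran from -0.02 to 0.02 in every library. WT replicate 3 was therefore below knockout replicate 1, and knockout replicate 2 was the lowest. Set against the other WT libraries only, WT replicate 3 was at -0.157. The -0.158 of knockout replicate 3 has a different reference, the mean of all WT libraries with WT replicate 3 among them. Members below the WT mean numbered 39, 14 and 67 of 82 in WT replicates 1 to 3, and 51, 72 and 60 in knockout replicates 1 to 3.

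In summed FPKM of the members the groups overlapped, at 30441, 32288 and 27951 in WT and 28581, 23472 and 27068 in knockout. As a share of all FPKM in a library, the summed members gave a clearer split. They made up 3.93%, 4.02% and 3.85% in the WT libraries and 3.68%, 3.30% and 3.56% in the knockout libraries, so the groups did not overlap. The means were 3.94% ± 0.0846 and 3.51% ± 0.194 (SD, n = 3 each). For 3 against 3 libraries an exact two-sided permutation test can give no p below 0.1, and none was computed for this sum over chosen members. The shares of complex V were close together in knockout, at 0.968%, 0.944% and 0.964%, and all under the WT values of 1.06%, 1.09% and 1.04%. Complex IV was at 1.06%, 1.11% and 1.07% in WT and at 0.990%, 0.835% and 0.942% in knockout. Complex I ran from 1.159% to 1.229% in WT and from 0.980% to 1.137% in knockout, without overlap. In complex II the shares overlapped, with 0.111% to 0.132% in WT and 0.105% to 0.127% in knockout. Those of complex III overlapped too, with 0.456% to 0.4855% in WT and 0.415% to 0.469% in knockout.

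Knockout replicate 2 was the lowest of the 6 libraries in 49 of 82 members, or 59.8%, against 20.9% of all genes, and the highest in 3. By complex it was the lowest in 22 of 36 in I, 0 of 4 in II, 6 of 8 in III, 12 of 17 in IV and 9 of 17 in V. Without it, 63 of 82 members (76.8%) were below 0, against 53.2% of all genes in the same fit, and the median was -0.12 against -0.03. At an unadjusted limma p under 0.05, 7 of the 82 members were then lower, against 4.95% of all genes, and 1 was higher, against 4.26%. In that fit 94 of the 1151 abundant genes outside the members were lower and 60 higher, against 7 and 1 of the 71 abundant members. Of those 1151 genes 63% were below 0, with a median of -0.07, and of the 71 members 78.9%, with a median of -0.125. Without that library 9 members turned from below to above 0, 26 moved over 1.5 times closer to 0 and 10 over 1.5 times further from it. The medians then were -0.10 in complex I, -0.06 in II, -0.07 in III, -0.15 in IV and -0.13 in V, where complex I had 26 of 36 members below 0 and complex IV still 15 of 17. In 23 members, 28.0%, knockout replicates 1 and 3 were both below every WT library, against 14.6% of all genes. The median coefficient of variation of a member was 8.78% in WT and 13.2% in knockout, and 6.91% in knockout without replicate 2. Over all genes it was 13.4%, 17.5% and 12.7%, and in complex II it was 10.5% in knockout and 12.6% without replicate 2. A median coefficient of variation over 2 libraries tends to be lower than one over 3 by construction.

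**Figure D2:**
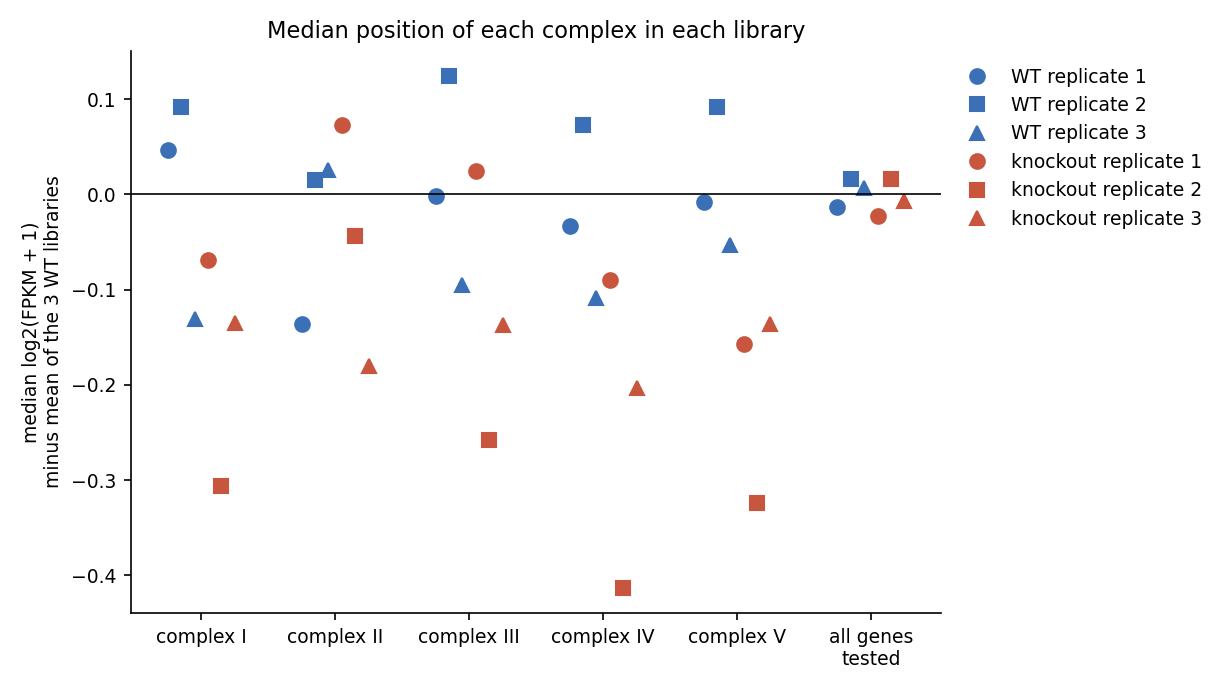
Median over the members of each complex of log2(FPKM + 1) minus the mean of the 3 WT libraries, for each library, beside all genes tested. Knockout replicate 2 (red squares) is lowest in complexes I, III, IV and V, at -0.26 to -0.41, and WT replicate 3 (blue triangles) lies below the other WT libraries in those 4 complexes.

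Within some libraries a member's position went with its transcript length, though not in the order of the library medians. Over the 79 members with a mean FPKM of at least 10, the position of a member in a library and its length, taken as the shortest annotated protein-coding transcript, had a Spearman's rho of 0.44 in knockout replicate 2, 0.40 in WT replicate 3, -0.36 in WT replicate 2 and -0.17 in WT replicate 1. In knockout replicates 1 and 3 it was 0.03 and -0.04, although replicate 3 had the lowest median but for replicate 2. Over 6327 genes of that level it was 0.20 in knockout replicate 2, 0.14 in WT replicate 3 and -0.18 in WT replicate 2. These are descriptions across genes that share a library. Of the 59 members with a transcript under 1000 nt, 55 were below 0, with a median of -0.21, and of the 23 longer ones 17 were, with a median of -0.105. Non-members under 1000 nt had a median of -0.07 and longer ones of -0.01. With a length trend removed from each library, an alternative chosen after seeing the data, 68 of 82 members were below 0 and the median was -0.12. The part of length in the differences was not tested further.

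**Figure D3:**
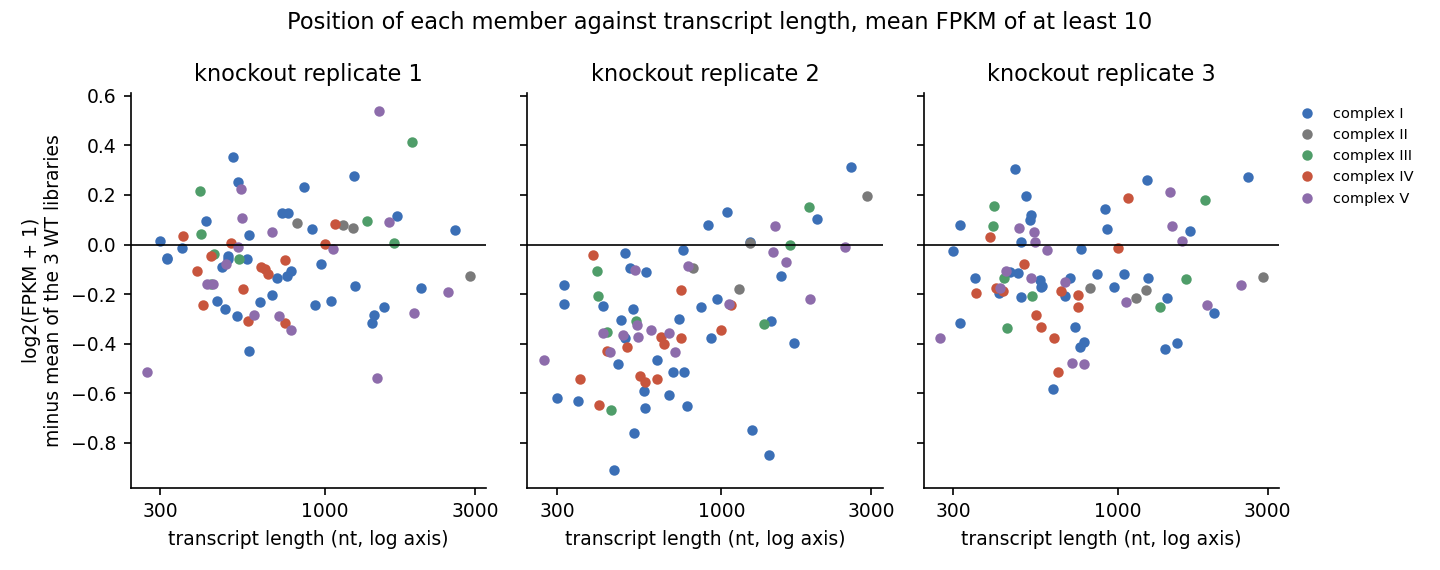
Position of each of 79 members, log2(FPKM + 1) minus the mean of the 3 WT libraries, against transcript length in nt on a log axis, for the 3 knockout libraries and coloured by complex. Short members lie lowest in knockout replicate 2 (Spearman's rho 0.44), and no such slope is seen in replicates 1 and 3 (0.03 and -0.04).

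In complex I, the NADH dehydrogenase, core subunits carry the flavin and iron-sulfur clusters and accessory subunits surround them. Of 7 nuclear core subunits 6 were below 0, with a median of -0.19, and of 29 accessory subunits 26 were, with a median of -0.16. Without knockout replicate 2 the core subunits had 6 of 7 below 0 and a median of -0.25, and the accessory ones 20 of 29 and -0.09. Among the core subunits, Ndufs8, which carries a pair of iron-sulfur clusters, was at 229, 222 and 212 FPKM in WT replicates 1 to 3 and at 205, 140.3 and 168 in knockout replicates 1 to 3. Every knockout library was below every WT library, with a log2 difference of -0.38 ± 0.15 (SE, n = 3 against 3, limma adjusted p = 0.512), or -0.25 without knockout replicate 2. Ndufv1, which binds the flavin and NADH, was at 134, 151 and 159 FPKM in WT and 121, 119 and 127 in knockout, again with no overlap (-0.27 ± 0.11). The largest core subunit, Ndufs1, went the other way: 61.8, 69.3 and 50.6 FPKM in WT and 62.6, 74.8 and 72.8 in knockout, where the groups overlapped (0.215 ± 0.157).

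The largest difference in complex I was that of Ndufab1, the mitochondrial acyl carrier protein, which also serves fatty acid and lipoic acid synthesis. It was at 201, 218 and 162 FPKM in WT and 154, 106 and 143 in knockout, so every knockout library was below every WT library. Its log2 difference was -0.53 ± 0.18 (SE), a knockout mean 69.5% of the WT mean, or 76.8% without knockout replicate 2, with a limma adjusted p of 0.486. Ndufb7, an accessory subunit of the membrane arm, was at 292, 347 and 263 FPKM in WT and 254, 216 and 199 in knockout (-0.43 ± 0.14, adjusted p = 0.486 by limma). It did not overlap and barely depended on knockout replicate 2, with 74.2% of the WT mean with it and 75.4% without. Ndufa2, an accessory subunit of the peripheral arm, was at 520, 514 and 445 FPKM in WT and 365, 311 and 437 in knockout (-0.42 ± 0.14). The accessory subunits Ndufb8, Ndufb6 and Ndufb4, all of the membrane arm, did not overlap either. Ndufb8 was at 523 ± 21.3 FPKM in WT and 417 ± 63.8 in knockout (SD, n = 3 each), with a log2 difference of -0.34, or -0.20 without knockout replicate 2. Ndufb6 was at 309.7 ± 14.9 and 265 ± 18.5, and Ndufb4 at 245 ± 17.9 and 219.7 ± 11.04.

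In other members of complex I a single library carried the difference. Ndufb2, of the membrane arm, was at 339, 366 and 262 FPKM in WT and 272.5, 169.5 and 296 in knockout, so that only knockout replicate 2 lay below the WT range (-0.42 ± 0.22). Its knockout mean was 76.3% of the WT mean and 88.1% without that library, with a log2 difference of -0.17 then. Ndufa13, also known as GRIM-19, showed the same, with 74.3 FPKM in knockout replicate 2, 112 and 114 in the other knockout libraries and 106 to 141 in WT. Its log2 difference was -0.35, and -0.15 without that library. In Ndufa7 the library turned the direction: the WT values were 493, 516 and 440 FPKM and the knockout values 574, 284 and 524, a log2 difference of -0.13 that became 0.19 without knockout replicate 2. The most abundant member of complex I, Ndufa3, was at 949, 968 and 748 FPKM in WT and 874, 570.1 and 804 in knockout, with overlap, and its log2 difference was -0.26, or -0.07 without that library. The accessory subunits Ndufa9 and Ndufs6 were higher on average, at 149 ± 6.46 against 170.2 ± 17.3 FPKM and 225 ± 29.1 against 251 ± 38.6 (SD), and both overlapped. For Ndufs6 the log2 difference was 0.15, and 0.27 without knockout replicate 2. Ndufs4, a subunit of the peripheral arm, was at 63.5 ± 4.12 and 60.8 ± 11.3 FPKM, and its log2 difference turned from -0.08 to 0.085 without that library. The least abundant member of complex I, Ndufa11, was at 30.7 ± 3.82 and 30.02 ± 0.644 FPKM.

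Complex II, succinate dehydrogenase, showed the smallest differences, from -0.02 to -0.105. Sdha, the flavin subunit that oxidizes succinate, was at 297, 256.5 and 271 FPKM in WT and 251, 314.5 and 251 in knockout. Here knockout replicate 2 was the highest library of all 6, and the log2 difference was -0.02 with it and -0.13 without it. Sdhb, the iron-sulfur subunit, was at 272, 302 and 284 FPKM in WT and 302, 252 and 246 in knockout (-0.105 ± 0.115, and -0.07 without replicate 2). The membrane anchors Sdhc and Sdhd were at 146 ± 17.6 and 201 ± 43.2 FPKM in WT and 139.6 ± 13.3 and 194 ± 17.4 in knockout (SD, n = 3). The log2 difference of Sdhd was -0.04, and -0.06 without that library. All 4 genes overlapped between genotypes, and under quantile normalization, which gives all libraries the same distribution, the median of the complex was 0.01 and 2 of 4 were below 0.

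Complex III passes electrons from coenzyme Q to cytochrome c. Its 3 subunits of the core list, Uqcrc1, Uqcrc2 and the Rieske iron-sulfur protein Uqcrfs1, had log2 differences of -0.04, 0.25 and -0.16, and that of Uqcrfs1 was -0.08 without knockout replicate 2. Its 5 small subunits had a median of -0.19, with 4 below 0. Uqcrc2 was the only one of the 82 members with every knockout library above every WT library: 125, 119 and 142 FPKM in WT and 171, 143 and 145 in knockout. The gap was narrow, 142.1 against 142.8, and the difference of 0.25 ± 0.13 (SE) had a limma adjusted p of 0.596. Its partner Uqcrc1 was at 380 ± 2.21 and 369 ± 20.4 FPKM (SD, n = 3). Uqcr11, a small membrane subunit, had the largest difference, with 728, 827 and 605 FPKM in WT and 696, 450 and 565 in knockout, and overlapped. Its log2 difference of -0.35 ± 0.18 was -0.19 without knockout replicate 2. The most abundant, the quinone-site subunit Uqcrb, was at 764, 864 and 750.4 FPKM in WT and 760.3, 639 and 685 in knockout (-0.19 ± 0.11). The hinge protein Uqcrh was at 546 ± 40.7 and 572 ± 63.8 FPKM, with a log2 difference of 0.06, or 0.15 without that library.

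In complex IV, cytochrome c oxidase, the central subunits are encoded in mitochondrial DNA and were not analysed here, and the nuclear subunits surround them. All 11 nuclear subunits with a mean of at least 100 FPKM were below 0, with a median of -0.24, and all 11 were without knockout replicate 2, with a median of -0.15. Cox6a1, a regulatory subunit in the dimer interface, was at 822.5, 798 and 705 FPKM in WT and 624, 526 and 615 in knockout, with no overlap. Its log2 difference was -0.40 ± 0.11 (limma adjusted p = 0.386, unadjusted 0.00714). Ndufa4, the most abundant member of all, was at 1381, 1622 and 1449 FPKM in WT and 1249, 946 and 1311 in knockout, without overlap (-0.36 ± 0.14, adjusted p = 0.524 by limma). Without knockout replicate 2 the log2 difference of Ndufa4 was -0.21. Cox8a, the smallest subunit, was at 884, 927 and 752.3 FPKM in WT and 751.6, 589 and 699 in knockout, where the groups nearly touched (-0.33 ± 0.13). Cox5b, which binds zinc, was at 802, 817 and 722 FPKM in WT and 732, 535 and 600.1 in knockout, and knockout replicate 1 lay inside the WT range (-0.34 ± 0.13). Cox5a, named after its values were seen, overlapped by a hair, with a lowest WT value of 419.4 FPKM and a highest knockout value of 420.0 (-0.33 ± 0.13). Of the other abundant subunits, Cox6b1 was at 788 ± 93.7 FPKM in WT and 675 ± 132 in knockout, Cox6c at 642 ± 29.5 and 578 ± 85.4, Cox7c at 506 ± 33.4 and 436 ± 57.7, and Cox7b at 296 ± 32.4 and 273 ± 35.8 (SD). These 4 overlapped, and without knockout replicate 2 their knockout means were 94.4%, 97.5%, 92.2% and 99.3% of the WT means. Their log2 differences, in the same order, were -0.23, -0.16, -0.22 and -0.12 with that library and -0.08, -0.04, -0.12 and -0.005 without it. Cox4i1, whose gene shares its promoter region with that of Cox4nb (Emc8), was at 966 ± 107 and 832 ± 90.8 FPKM (SD), with overlap, and its log2 difference was -0.215, or -0.13 without knockout replicate 2. Cox4nb itself was at 17.4 ± 0.639 and 14.5 ± 0.715 FPKM and did not overlap.

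**Figure D4:**
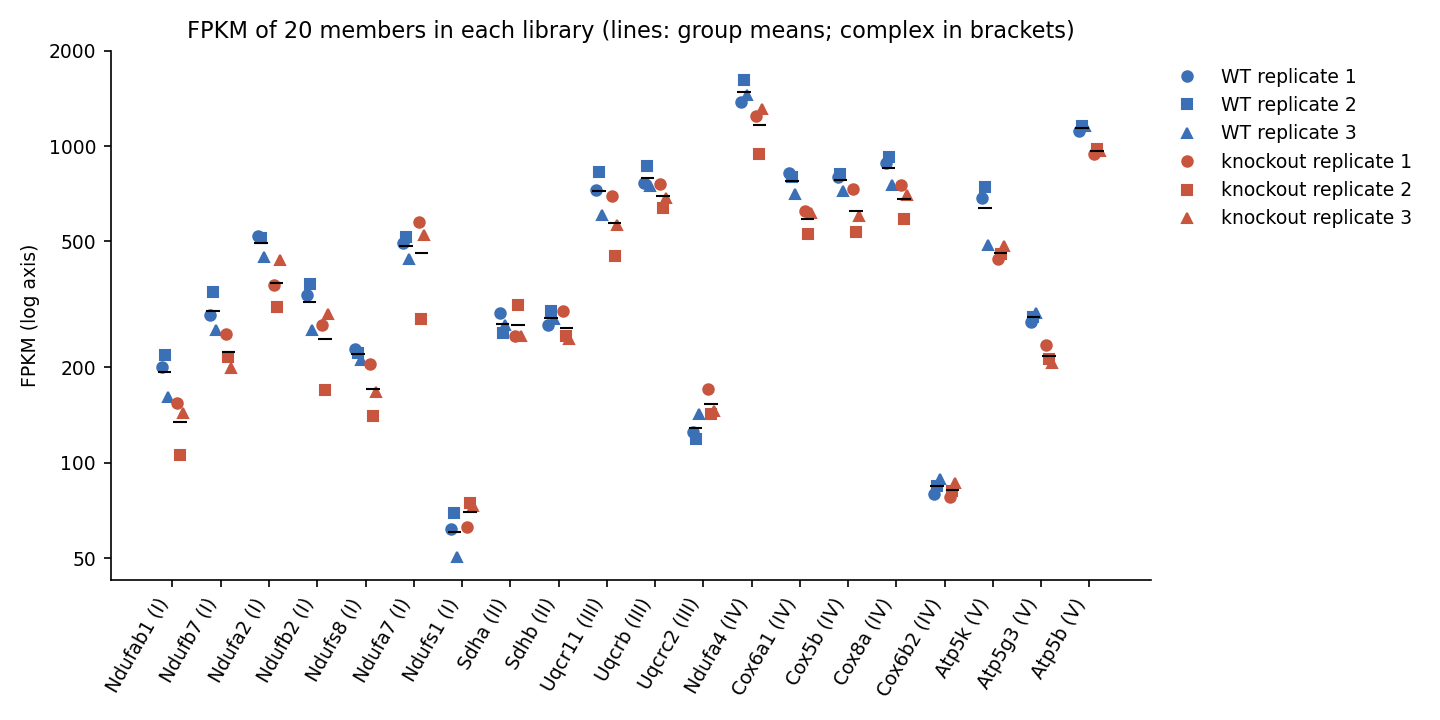
FPKM of 20 members in each of the 6 libraries on a log axis, with the complex in brackets and black lines for the group means. Atp5g3 and Atp5b show tight groups that do not overlap, while in Ndufb2 and Ndufa7 knockout replicate 2 (red square) lies well below the other libraries.

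Several subunits of complex IV have tissue-specific isoforms, and the LT-HSC libraries held mostly the widespread form. Cox4i1 made up 99.4% ± 0.328 of the Cox4i FPKM in WT and 99.7% ± 0.313 in knockout, and the lung-enriched Cox4i2 was at 0.410 to 10.01 FPKM. Cox6a1 made up 99.3% ± 0.591 and 99.0% ± 0.928, with the heart and muscle form Cox6a2 at 2.15 to 13.1 FPKM and a log2 difference of 0.09, or 0.51 without knockout replicate 2. The muscle form Cox7a1 was at 2.575 to 4.43 FPKM, with a log2 difference of -0.08, or -0.22 without that library, and Cox8a gave all of the Cox8 signal but that 1 low value of Cox8c. Ndufa4l2 was listed at 0 in every library. Cox6b2, known as a testis form, was an exception: at 79.6, 84.4 and 88.9 FPKM in WT and 78.1, 81.7 and 86.1 in knockout, it made up 9.75% ± 1.29 and 11.1% ± 2.15 of the Cox6b pair. Its level in knockout replicate 2 lay among those of the other libraries, and whether reads of Cox6b1 or of an overlapping gene contribute to it was not tested.

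Within the Cox7a set, Cox7a2 and the related supercomplex factor Cox7a2l differed in their shares. Cox7a2 made up 47.03%, 47.9% and 46.4% in WT and 43.6%, 44.3% and 40.8% in knockout, and Cox7a2l 52.3%, 51.7% and 53.2% in WT and 55.98%, 54.9% and 58.8% in knockout. The groups did not overlap in either share. Cox7a1 made up only 0.393% to 0.732% of the set, so each of these shares nearly fixes the other and they are not separate results. The exact two-sided permutation p was 0.1, the smallest these libraries allow, and 0.5 after adjustment over 10 shares. In FPKM, Cox7a2 was at 308 ± 29.9 in WT and 261 ± 25.9 in knockout, and Cox7a2l at 342 ± 23.3 and 346 ± 52.2. Without knockout replicate 2 the log2 difference of Cox7a2 went from -0.24 to -0.15 and that of Cox7a2l from 0.01 to 0.135.

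In complex V all 5 subunits of the catalytic F1 head were below 0, with a median of -0.23, as were all 6 membrane subunits, with a median of -0.225, and 3 of 4 stalk subunits, with a median of -0.105. Without knockout replicate 2, the 5 F1 subunits were still below 0 with a median of -0.18, and 4 of 6 membrane subunits were, with a median of -0.14. The stalk had 3 of 4 below 0 then, with a median of -0.03. Atp5b, the catalytic beta subunit, varied little within each genotype. It was at 1113, 1155 and 1159 FPKM in WT and 943.6, 980.3 and 963.0 in knockout, where every knockout library was below every WT library. Its log2 difference of -0.25 ± 0.08 (SE) had an unadjusted limma p of 0.0175 and an adjusted p of 0.486, and the knockout mean was 84.2% of WT, or 83.5% without replicate 2. The rotor shaft Atp5c1, subunit gamma, was at 548 ± 6.68 FPKM in WT and 491 ± 43.5 in knockout (SD), without overlap, and Atp5a1, the alpha subunit that alternates with beta in the head, at 525 ± 14.01 and 483 ± 33.0, with overlap. Atp5d, the delta subunit, was at 328, 404 and 304 FPKM in WT and 269.9, 323 and 245 in knockout, and knockout replicate 2 lay inside the WT range (-0.30 ± 0.15).

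In the membrane part, Atp5k, subunit e of the dimer interface, was at 687, 744 and 488 FPKM in WT and 441, 455 and 484 in knockout. The groups did not overlap, but WT replicate 3 lay close to the knockout libraries (-0.45 ± 0.16, limma adjusted p = 0.490). The c ring, which turns with the proton flow, is encoded by Atp5g1, Atp5g2 and Atp5g3, and all make the same mature protein. Atp5g3 was at 279, 288 and 296 FPKM in WT and 235, 212.5 and 206 in knockout, and its groups stood well apart (-0.40 ± 0.10, adjusted p = 0.332 by limma). Atp5g2, the main source, was at 627.5, 681 and 544 FPKM in WT and 551, 456 and 571 in knockout, and Atp5g1 at 326, 364 and 271 in WT and 261, 250.2 and 313 in knockout, both with overlap. The log2 difference of Atp5g2 was -0.23, and -0.13 without knockout replicate 2. Of the c subunit FPKM, Atp5g2 gave 50.3% ± 1.175 in WT and 51.5% ± 1.67 in knockout, and Atp5g3 gave 23.6% ± 2.67 and 21.5% ± 2.28, with overlap in both shares. Of the other membrane subunits, Atp5l was at 584 ± 33.5 and 555 ± 93.8 FPKM, and Atp5j2 at 491 ± 29.2 and 491 ± 92.0. Both turned direction without knockout replicate 2, Atp5l from -0.09 to 0.06 and Atp5j2 from -0.02 to 0.14. Of the stalk, Atp5o, the protein that confers oligomycin sensitivity, was at 435 ± 15.3 and 411 ± 18.6 FPKM, Atp5h was at 618 ± 54.4 and 569 ± 84.4 FPKM, and Atp5f1, subunit b, at 422 ± 20.1 and 426 ± 23.3 FPKM (SD). The log2 difference of Atp5h was -0.13, or -0.006 without that library, and that of Atp5f1 was 0.01, or 0.05 without it. The non-subunits Atp5s and Atp5sl were low, at 22.6 ± 6.15 and 15.9 ± 1.69 FPKM in WT and 26.3 ± 5.28 and 14.85 ± 3.99 in knockout.

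Genes that build or serve the complexes were taken from 10 lists, and 0 genes of them passed the test by limma. Complex I assembly factors had 12 of 17 tested genes below 0, complex III assembly factors with the cytochromes 7 of 9, complex IV assembly factors 15 of 25 and complex V assembly and regulation 7 of 7. At an unadjusted p under 0.05 these gave 0, 1, 2 and 0 genes lower, and 0, 0, 1 and 0 higher, against 4.84% and 4.32% of all genes. So few genes are no result about the lists. The complex IV factors depended on knockout replicate 2, with a median of -0.11 over all libraries and 12 of 25 below 0 without it. The complex V list had a median of -0.27 and was 7 of 7 below 0 without that library, with a median of -0.23. It holds Usmg5 and 2010107E04Rik, whose current symbols, Atp5md and Atp5mpl, name them with the ATP synthase itself. Tmem70 is counted both there and in the complex I list. The complex II factors had 1 of 4 below 0. In complex I assembly, Ndufaf2 was at 56.9 ± 6.59 FPKM in WT and 41.9 ± 18.1 in knockout (SD), with a log2 difference of -0.52, or -0.175 without knockout replicate 2. Tmem126b, which takes part in building the membrane arm, was at 20.8, 11.07 and 27.0 FPKM in WT and 42.3, 18.7 and 37.8 in knockout, higher on average with overlap (0.72 ± 0.39).

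Among the assembly factors, Sdhaf1, which helps insert iron-sulfur clusters into Sdhb, was at 42.55, 49.1 and 31.4 FPKM in WT and 21.7, 23.2 and 26.5 in knockout. It did not overlap, while its substrate Sdhb differed by less than its spread (log2 difference of Sdhaf1 -0.74 ± 0.20, limma adjusted p = 0.380). Sdhaf3, listed as Acn9 and also a factor for Sdhb, was at 17.8, 16.45 and 16.2 FPKM in WT and 30.2, 9.26 and 22.3 in knockout, a log2 difference of 0.13 that was 0.60 without knockout replicate 2. Cox11, which delivers copper to complex IV, was at 14.15, 16.55 and 19.0 FPKM in WT and 7.43, 9.18 and 11 in knockout, without overlap (-0.79 ± 0.23, adjusted p = 0.407 by limma). Cox18, an insertase for a mitochondrially encoded subunit, was at 20.7, 30.6 and 15.0 FPKM in WT and 37.2, 38.9 and 29.1 in knockout (0.69 ± 0.26), and overlapped. Cyc1, cytochrome c1 of complex III and a nuclear gene outside the symbol pattern, was at 295, 275 and 242.1 FPKM in WT and 224, 213 and 240.9 in knockout, with no overlap by a narrow gap (-0.26 ± 0.11). Uqcc1, listed as Uqcc, was at 40.8 ± 11.2 and 31.7 ± 3.83 FPKM (SD). The complex V chaperone Atpaf1 was at 29.7 ± 4.12 and 22.7 ± 3.8 FPKM, and Fmc1, listed as 1110001J03Rik, at 139.8 ± 3.55 and 103 ± 33.8 (SD), where the log2 difference of -0.49 was -0.23 without knockout replicate 2.

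Coenzyme Q synthesis had 10 of 13 genes below 0 with a median of -0.35. Pdss1, which makes the tail of the molecule, was at 20.5, 12.5 and 21.7 FPKM in WT and 12.1, 8.335 and 11.75 in knockout, without overlap (-0.69 ± 0.27). Coq10b, a coenzyme Q binding protein, was at 13.1 ± 1.70 and 8.30 ± 2.06 FPKM (SD, log2 difference -0.62). The tricarboxylic acid cycle lay near the background in direction and median, with 10 of 18 below 0 and a median of -0.04. Regulators of respiratory genes had 9 of 13 below 0 and a median of -0.125. In the cycle list, Pdhx was at 15.8 ± 2.33 and 10.7 ± 2.155 FPKM (SD, log2 difference -0.53), and Dld at 61.3 ± 18.7 and 50.1 ± 13.2, where the log2 difference of -0.28 was -0.06 without knockout replicate 2. Both regulators named were higher on average: Tfb1m, a mitochondrial rRNA methyltransferase, at 15.5 ± 5.19 and 19.4 ± 1.45 FPKM (0.34 ± 0.245), and Hif1a, the oxygen-regulated factor, at 22.0 ± 7.02 and 25.9 ± 3.46 (0.26 ± 0.24). Mitochondrial import had 21 of 24 below 0 and a median of -0.26, and 22 of 24 without knockout replicate 2. In 12 of the 24 no knockout library reached the lowest WT library, against 8.34% of all genes. The same held for 4 of 18 cycle genes, 3 of 13 of coenzyme Q synthesis, 2 of 13 regulators and 7 of 12 in the inner membrane list. Every knockout library was above every WT library in 1 gene of the cycle and 1 of the inner membrane list. Tomm70a, an import receptor of the outer membrane, had the largest difference, with 28.5, 47.3 and 47.04 FPKM in WT and 35.5, 12.9 and 15.5 in knockout, where the groups overlapped. Timm9, a chaperone of the intermembrane space, was at 68.0 ± 10.6 and 47.2 ± 5.36 FPKM (SD, log2 difference -0.51). In the inner membrane list 9 of 12 were below 0, and Phb2, a prohibitin of the inner membrane, was at 262, 247 and 248 FPKM in WT and 189, 178 and 191 in knockout (-0.44 ± 0.10, limma adjusted p = 0.289). Those Phb2 libraries stood further apart than those of any respiratory chain member by unadjusted p, at 0.00196 against 0.00415 for Atp5g3. Chchd6, of the cristae-shaping MICOS complex, was at 80.25 ± 8.96 and 61.3 ± 7.13 FPKM (SD, log2 difference -0.38).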

How the data were processed

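The authors deposited FPKM values per gene, in 1 column for each of 6 libraries, and these were used as given. Per the submitters' processing notes, the tools named are TopHat2 2.1.1 and Cufflinks 2.2.1 and the build is mm9. No label or header states the alignment options, annotation or use of strand, so overlapping and near-identical genes are less certain.

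All genes whose mean FPKM reached 1 were tested with limma 3.58.1 in R 4.3.3 (variance trend, two-sided) on log2(FPKM + 1), which understates changes of low genes, with Benjamini-Hochberg adjustment over the 11532 genes and an adjusted p under 0.05 as threshold. Depth was estimated from the steps of low values of 2874 genes, and no count test was run. Shares were compared by exact permutation. The script was tested on simulated data. Of the members, 81 matched a current symbol directly and 4 through a synonym. Mitochondrially encoded genes were not analysed here.

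Members and lists were chosen with earlier results of these data known. Named were, per complex, called members, those with the largest differences at a mean FPKM of at least 10 (6 in complex I, 4 each in IV and V, 3 in III, 2 in II), the 2 most abundant, isoform sets and non-subunits, and 2 genes of each other list. That gave 41 members. All other members named with values, such as Ndufs1, Ndufs6, Ndufv1, Ndufa9, Sdhd, Uqcrh, Cox5a and Atp5f1, were added after their values were seen. The values of 1 member are not reported here.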

Additional observations from a re-analysis of the deposited data

How the results depend on the processing

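Under 18 alternatives, 1 of them (the removal of a length trend) chosen after seeing the data, 0 members passed the test, and the smallest adjusted p was 0.241, of Atp5g3 without small RNA genes. Between 63 and 74 of 82 members were below 0, the lowest count without knockout replicate 2 and the highest with libraries scaled to a common median. Over all genes the share below 0 was 53.2% without knockout replicate 2 and 54.8% with the common median. Medians of complexes I, III, IV and V stayed below 0, and that of complex II was 0.01 under quantile normalization and 0.015 without knockout replicate 3. Over all genes, 13 were called, against 32 when small RNA genes were left out, 20 with robust estimation, 6 with no variance trend and 1 with no filter. Leaving out each library gave 2 to 19 called genes, with 2 when knockout replicate 3 was left out, 5 for knockout replicate 2 and 7 for WT replicate 2. The 15 members lower at an unadjusted p under 0.05 became 3 with no variance trend. Leaving out a library gave 2 to 16, with 2 for WT replicate 2, 6 for WT replicate 1 and 7 for knockout replicate 2. The cause of these shifts was not tested. Over all genes the share lower was 4.84% with all libraries and 4.95% without knockout replicate 2. For the other alternatives no such share is given, so their counts alone show no excess among the members.

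The labels do not say whether libraries with the same replicate number were paired. Same-numbered libraries had correlations of 0.08, 0.01 and 0.035, and differently numbered ones ran from -0.083 to 0.048. Of the 6 libraries, 4 correlated best with their own number. With 3 libraries per genotype these values cannot decide whether the numbers pair them. With the replicate number as a block, 2 of all genes were called, 0 members passed, and 8 members were lower at an unadjusted p under 0.05. That count too stands without the share over all genes in the same fit.

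Of 47 named members tested, 36 kept their sign under every alternative. The common median gave -0.011 for Atp5f1 and -0.013 for Cox7a2l, quantile normalization 0.036 for Sdha and 0.035 for Sdhd, and removal of the length trend 0.026 for Cox6b2. Leaving out each library gave -0.028 to 0.051 for Atp5f1, -0.284 to 0.091 for Atp5sl, -0.567 to 0.600 for Cox6a2, -0.220 to 0.106 for Cox7a1, -0.080 to 0.135 for Cox7a2l, -0.129 to 0.036 for Sdha, -0.162 to 0.008 for Sdhc, -0.173 to 0.125 for Sdhd and -0.014 to 0.147 for Uqcrh. For Ndufa7 the range was -0.321 to 0.186, the latter without knockout replicate 2. For members under 10 FPKM the few fragments limit what can be read.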
